A study of Mus musculus with 52 samples.

Results

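Ribosome density, the amount of ribosome footprints on a gene's transcripts relative to the amount of its mRNA, was compared between mouse embryonic fibroblasts after 1 h of thapsigargin and untreated fibroblasts, separately in the endoplasmic reticulum (ER) fraction and in the cytosol fraction. The members are all genes with a deposited density in both conditions and both fractions, which held for 2650 of the 22417 genes listed. Thapsigargin (Tg) blocks the calcium pump of the ER, which empties the calcium store that ER chaperones need. The study followed translation and mRNA over a time course of Tg or of the reducing agent DTT, and the 52 samples of its labels include 16 that bear on this comparison. These are 8 footprint and 8 mRNA samples, 2 in each of 8 groups, namely ER or cytosol, footprints or mRNA, and untreated or 1 h of Tg. Every group had the genotype CReP+/-; GADD34+/+ (WT), so the controls too carried 1 altered allele of CReP, and both named genes encode partners of the phosphatase that acts on the initiation factor eIF2 alpha. The labels give no Tg dose, no embryo or clone of origin and nothing on whether the paired samples came from separate cultures.

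Phosphorylation of eIF2 alpha by the stress kinase PERK lowers initiation on most mRNAs. A small set of mRNAs with short upstream open reading frames escapes this and is read more, among them the mRNAs of the transcription factors ATF4 and CHOP. mRNAs of secreted and membrane proteins are normally translated on ribosomes docked at the ER, whereas most other mRNAs are translated on free ribosomes, with a part of each found in the other fraction.

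The deposited table holds 1 pooled value per gene, fraction and condition, so no spread between replicates is known, the read depth is unknown, and nothing below was tested. A gene is called over 2-fold higher or lower where its log2 change lies beyond 1 or -1 after subtraction of the median change of the 2650 genes. That median was -0.08 in the ER and 0.24 in the cytosol as deposited, and all changes below are relative to it, since the scaling of the columns is not stated. A change in density is therefore a change relative to the median gene, and a general fall in translation would leave no trace in it. In such bulk fractions fewer cells of a type and less RNA per cell cannot be told apart. Of 12 fibroblast markers, 11 had a footprint value in the ER fraction of untreated cells, led by Vim at a footprint score of 1192, and Fap was blank. Epithelial, endothelial, blood and pluripotency markers were blank or at scores of at most 1.36, whereas the muscle actin Acta1 stood at 260 in the ER of untreated cells and the neural marker Tubb3 reached 54.3 in the cytosol after 1 h of Tg. A TRUE or FALSE column without a header divides the genes, and the ER chaperones and surface proteins listed among the members had TRUE in 26 of 26 cases, while 0 of the 72 ribosomal proteins had it. Genes with TRUE are called marked below. They made up 193 of the members, or 2.29% of the 8434 marked genes of the table. The 2457 unmarked members were 17.6% of the unmarked genes. Results on marked genes thus cover only the small part of them with all 4 densities.

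The genes that moved were in part the same in the 2 fractions. In the ER, 333 genes were over 2-fold higher (12.6%) and 274 over 2-fold lower (10.3%). In the cytosol, 262 genes were over 2-fold higher (9.89%) and 253 over 2-fold lower (9.55%). Without subtraction of the median the same counts were 288 and 326 in the ER and 413 and 144 in the cytosol, so the split between higher and lower depends on the scale, and in the cytosol it does so by more than in the ER. The quartiles of the change were -0.54 and 0.57 in the ER and -0.47 and 0.50 in the cytosol. Across the 2650 genes the ER and cytosol changes had a Pearson correlation of 0.26 and a Spearman correlation of 0.26, and 0.34 (Pearson) over the 1032 genes with footprint and mRNA scores above those of the median gene; each point is a gene, and genes are not independent replicates. Being over 2-fold higher in both fractions applied to 63 genes, 18.9% of those higher in the ER and 24.05% of those higher in the cytosol. Of all members, 9.89% were higher in the cytosol and 12.6% in the ER. Being over 2-fold lower in both applied to 51 genes, 18.6% of those lower in the ER and 20.2% of those lower in the cytosol. Of all members, 9.55% were lower in the cytosol and 10.3% in the ER. Opposite moves were rarer. There were 19 genes higher in the ER and lower in the cytosol, 5.71% of those higher in the ER. Another 10 went the other way round, 3.65% of those lower in the ER.

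**Figure D1:**
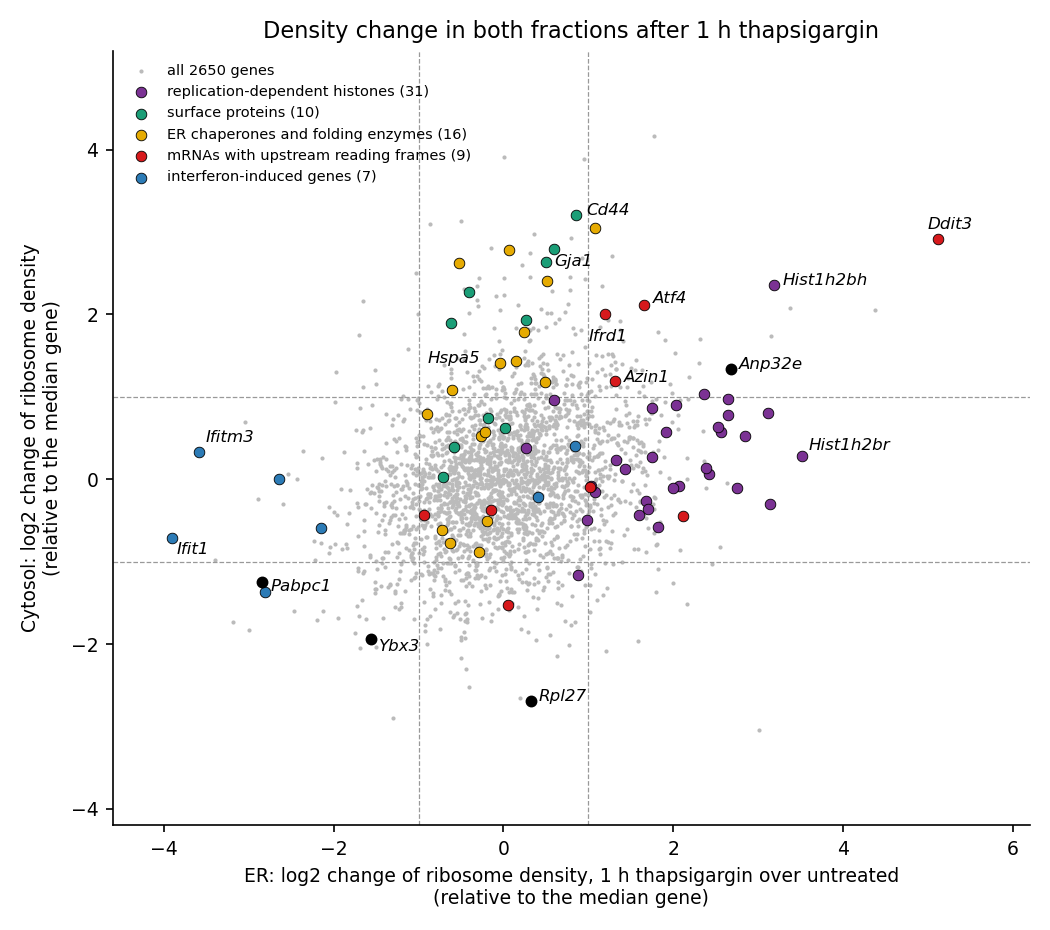
Log2 change of ribosome density after 1 h of Tg in the ER (horizontal) against the cytosol (vertical), relative to the median gene, 1 point per gene and 1 pooled value per condition; dashed lines mark the 2-fold limits and colours mark 5 gene lists. Ddit3 lies at 5.12 and 2.92, the histones spread to the right of the ER limit, 6 of the 10 surface proteins lie above the cytosol limit, and most interferon-induced genes lie far to the left.

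mRNAs known to be translated under eIF2 alpha phosphorylation through upstream reading frames stood high in the ER. Of 29 listed genes, 9 had all 4 densities, with a median ER change of 1.20, 6 over 2-fold higher and 0 lower; in the cytosol the median was -0.09, 4 were higher and 1 lower. Over all ER genes with both densities in that fraction, whatever the cytosol held, the list's ER median was 0.79. Ddit3, which encodes the transcription factor CHOP, had an ER density of 0.0390 in untreated cells and 1.28 at 1 h of Tg, and a cytosol density of 0.0916 and 0.815. Its change of 5.12 in the ER was the highest of all members there, and in the cytosol it was 2.92; with 0.1 added to each density the changes were 3.38 and 2.04. The ER footprint score of Ddit3 went from 5.06 to 134 while its ER mRNA score was 122 and 114, so footprints and not mRNA carried the ER difference. In the cytosol both parts were higher, with footprints at 4.81 and 128 and mRNA at 59.0 and 157.

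Atf4, the transcription factor upstream of CHOP, had an ER density of 1.99 untreated and 5.96 at 1 h, and a cytosol density of 1.94 and 9.89. Its changes were 1.66 in the ER and 2.11 in the cytosol, and its mRNA score also stood higher at 1 h, at 75.2 against 23.9 in the ER. Ifrd1, an interferon-related developmental regulator with a known upstream reading frame, went from 2.18 to 4.76 in the ER and from 3.19 to 15.1 in the cytosol, changes of 1.20 and 2.00. Azin1, the inhibitor of antizyme in polyamine metabolism, went from 0.756 to 1.79 in the ER and from 1.55 to 4.19 in the cytosol, changes of 1.32 and 1.20. These 4 genes were over 2-fold higher in both fractions. Cebpb, a transcription factor with several translation starts, was higher in the ER alone, with densities of 1.21 and 4.95 there and 3.24 and 2.80 in the cytosol. Its ER change of 2.11 was 1.64 when computed from the deposited footprint and mRNA scores. Amd1, a polyamine enzyme whose mRNA carries a regulatory upstream peptide, had changes of 1.022 and -0.09. The remaining members showed no gain beyond 2-fold, with Eif5 at -0.14 and -0.37, Eprs at -0.94 and -0.43, and Brap at 0.06 and -1.53.

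Several of the best known escape mRNAs lacked 1 or more of the 4 densities. Ppp1r15a, which encodes GADD34, had a cytosol density of 0.306 untreated and 8.52 at 1 h and an ER density of 3.25 at 1 h, with no ER value in untreated cells. Its ER footprint score was 1.82 untreated and 37.8 at 1 h. Ppp1r15b, which encodes CReP, had ER densities of 0.919 and 0.398 and no cytosol density. Atf5, Slc35a4 and Xbp1 had footprint scores only or a single density. Atf5 footprints in the ER stood at 10.4 untreated and 75.2 at 1 h, and Slc35a4 footprints at 3.32 and 20.4.

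The time course of these densities is given side by side, since all times share the same untreated column. In the ER, Ddit3 density was 0.0390, 0.616, 1.28, 0.445 and 0.308 in untreated cells and at 0.5, 1, 2 and 4 h, so 1 h was its highest time. Atf4 was highest at 0.5 h in both fractions, with 11.6 in the ER and 10.7 in the cytosol. Ifrd1 in the cytosol stood at 3.19, 11.7, 15.1, 11.3 and 7.61 over the same times.

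**Figure D2:**
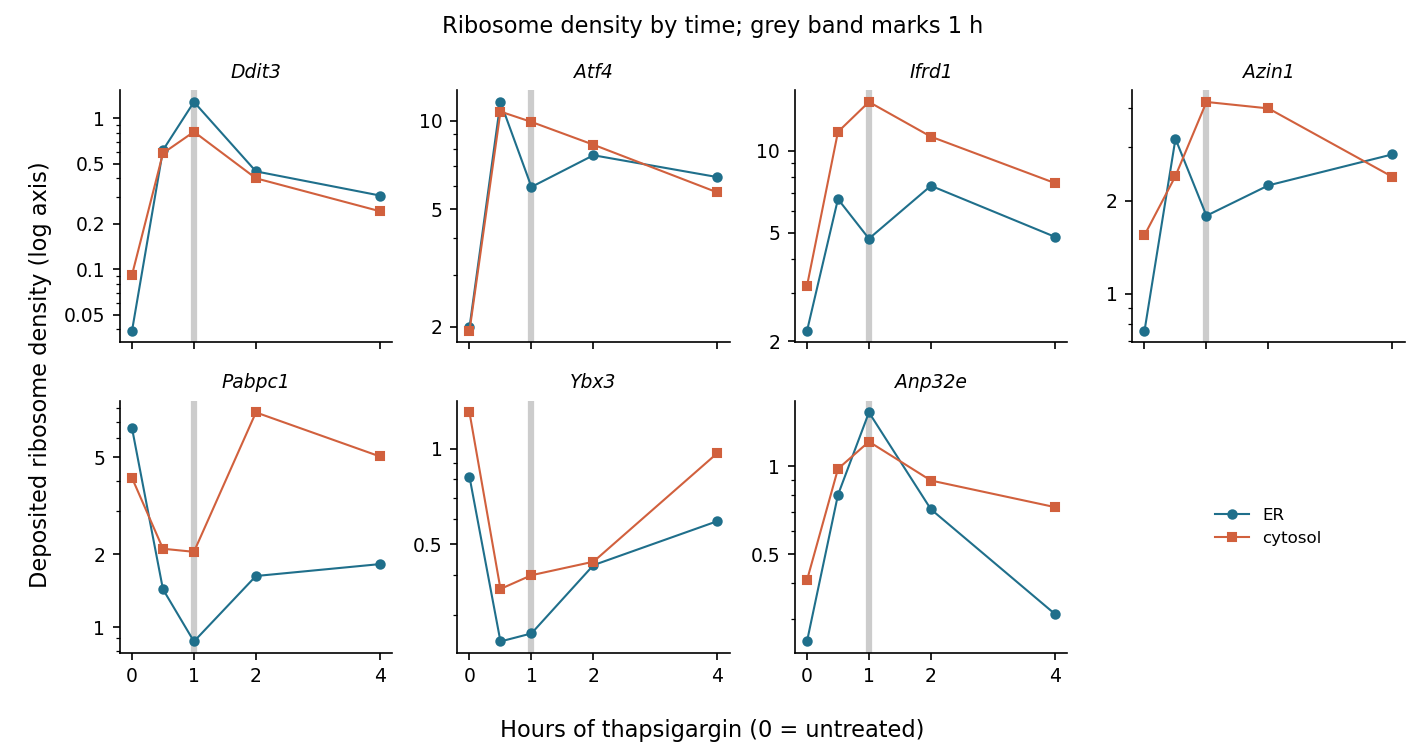
Deposited ribosome density (log axis) of 7 genes in untreated cells (0 h) and after 0.5, 1, 2 and 4 h of Tg, 1 pooled value per point, circles for the ER and squares for the cytosol; the grey band marks 1 h. Ddit3, Atf4, Ifrd1 and Azin1 lie above their untreated value in both fractions at 1 h, Pabpc1 and Ybx3 below it, and Anp32e peaks at 1 h with an ER density of 1.53.

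Among the lowest genes were Pabpc1 and Ybx3, which encode RNA-binding proteins of translation and mRNA stability, and both were over 2-fold lower in both fractions. Pabpc1, the main cytoplasmic poly(A)-binding protein, had an ER density of 6.61 untreated and 0.874 at 1 h and a cytosol density of 4.12 and 2.04, changes of -2.84 and -1.25. Ybx3, a cold shock domain protein that binds mRNA, went from 0.816 to 0.262 in the ER and from 1.30 to 0.399 in the cytosol, changes of -1.56 and -1.94. In both genes the footprint score carried the difference: Ybx3 footprints in the ER were 64.2 and 17.4 while its ER mRNA score was 79.0 and 66.9. Both stood below their untreated ER density at each of the later times too, with Ybx3 nearest to it at 0.591 after 4 h. In the cytosol Ybx3 also stayed below its untreated density at 2 and 4 h. The cytosol density of Pabpc1 stood above its untreated 4.12 by then, at 7.66 after 2 h and 5.05 after 4 h. These genes were picked out together after their values were seen. Their relatives did not share the move, with Pabpc4 at -0.11 and -0.70 and Ybx1 at -0.27 and -0.51.

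Others among the lowest in the ER, of the 1032 genes with footprint and mRNA scores above those of the median gene, were mixed in function. Psme2, a subunit of the proteasome activator, was lower in both fractions (-3.00 in the ER, -1.83 in the cytosol). From the scores Psme2 was at -2.47 in the ER and -1.07 in the cytosol. Cbr2, a carbonyl reductase, had -3.18 and -1.74, but its ER change was -1.04 from the scores. Snrpb2, a protein of the spliceosome, had -2.53 in the ER and 0.06 in the cytosol, Wdr61 had -2.23 and -0.75, and the ribosomal protein gene Rps7 had -2.15 and -0.77. From the scores Rps7 in the ER was at -1.18. Of the same 1032 genes, the lowest in the cytosol were Rpl27 (-2.69), Rasl2-9 (-2.05), Bud31 (-2.04), Ybx3, Gnas, the stimulatory G protein alpha subunit (-1.86), Psme2, the surface protein Cd99 (-1.77) and Gcsh of the glycine cleavage system (-1.77). Rpl27 and Rasl2-9 belong to families with near-identical copies and are uncertain. The cytosol density of Rpl27 was 41.4 untreated and 13.6, 7.56, 21.2 and 21.2 at 0.5, 1, 2 and 4 h, while its ER density was 6.12 and 7.25.

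Marked genes stood apart in the cytosol and not in the ER. Their median cytosol change was 0.65, with 72 of 193 over 2-fold higher (37.3%) and 11 lower, against a median of -0.03 and 190 of 2457 higher (7.73%) among unmarked genes. In the ER the medians were -0.04 and 0.00, with 22 marked genes higher and 18 lower. In untreated cells the cytosol density of marked genes relative to their ER density lay below that of unmarked genes by a log2 difference of -2.14. At 1 h of Tg this difference was -1.26, and at 0.5, 2 and 4 h it was -0.62, -1.44 and -1.72 over the genes with values. The cytosol median of marked genes at those times was 1.11, 0.40 and 0.10. Both parts of the density were higher in the cytosol: the footprint score of marked genes had a median change of 1.79 and the mRNA score one of 0.54. All 72 marked genes over 2-fold higher in density had footprints over 2-fold higher, as did 120 of all 193 marked genes. Whether ER material in the cytosol fraction had a part in this was not tested.

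**Figure D3:**
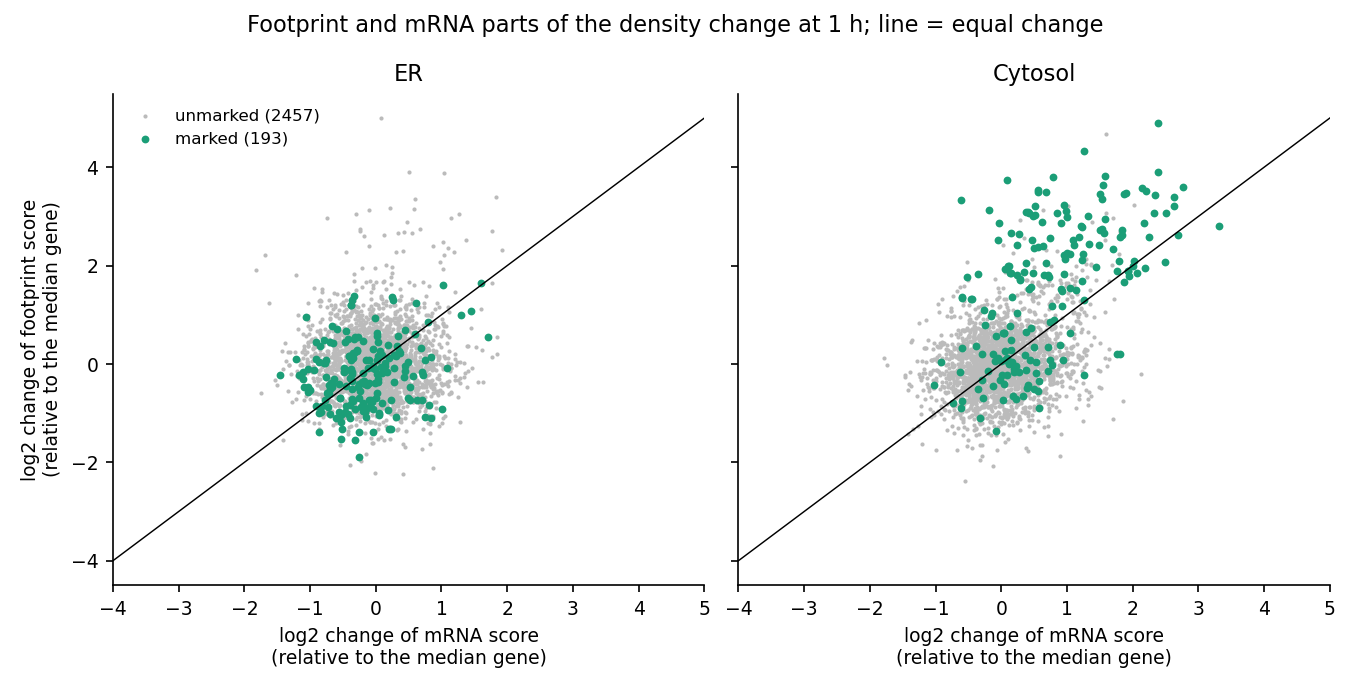
Log2 change of the mRNA score (horizontal) against that of the footprint score (vertical) at 1 h of Tg, relative to the median gene, 1 point per gene, in the ER (left) and the cytosol (right); green points are the 193 marked genes and the line marks equal change. Marked genes surround the origin in the ER and lie up and to the right in the cytosol, where 120 of them were over 2-fold higher in footprints and 61 in mRNA.

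Surface proteins had the highest list median in the cytosol. The median of its 10 members was 1.91, and 6 of them were over 2-fold higher and 0 lower, while 0 of 10 passed 2-fold in the ER around a median of -0.08. Cd44, the hyaluronan receptor, had a cytosol density of 0.562 untreated and 6.10 at 1 h and an ER density of 2.20 and 3.78, changes of 3.20 and 0.86. Gja1, the gap junction protein connexin 43, went from 0.986 to 7.23 in the cytosol and from 5.83 to 7.84 in the ER, changes of 2.64 and 0.50. The tetraspanin Tspan31 (2.79) and the cadherin Cdh11 (2.27) were also higher in the cytosol, whereas the integrin Itgb1 was not (0.02). Cd99, a marked surface protein outside this list, was over 2-fold lower in the cytosol (-1.77).

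Matrix and secreted proteins were less uniform, with 6 of 14 higher and 1 lower in the cytosol (median 0.88). Sparc, a collagen-binding matrix glycoprotein, had cytosol densities of 0.702 and 4.52 and ER densities of 3.91 and 4.62. The protease Mmp3 had 0.0876 and 1.85 in the cytosol, a change of 4.16, which was 2.10 from the scores; its ER change of 1.78 was -0.12 from the scores. The protease inhibitor Cst3 was at 1.39 in the cytosol, and Pcolce, an enhancer of procollagen processing, was lower at -1.37. Fn1, fibronectin, was at -0.12 in the cytosol and lower in the ER at -1.21. Of the ER entry and glycosylation machinery, 5 of 23 were higher and 1 lower in the cytosol (median 0.28). The 4 farthest were Ssr1 of the translocon (2.98), the oligosaccharyltransferase subunits Stt3b (2.06) and Stt3a (1.84), and the translocation protein Sec62 (1.55).

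ER chaperones and folding enzymes were spread widely in the cytosol, from -0.88 to 3.05. Of 16 members, 9 were over 2-fold higher and 0 lower, with a median of 1.13, while in the ER 1 was higher and 0 lower around -0.21. The cytosol median was 0.62 among members above the median level and 0.86 with 0.1 added to the densities, so for several of them a very low untreated density sets the size. Hspa5, the chaperone BiP, had cytosol densities of 0.401 and 1.26 and ER densities of 1.92 and 1.77, changes of 1.41 and -0.04. Calr, the lectin chaperone calreticulin, had 0.256 and 0.820 in the cytosol and 1.39 and 1.47 in the ER, changes of 1.44 and 0.15. Prkcsh, the glucosidase II beta subunit (3.05), Sdf2 (2.78), Rcn1 (2.63) and the thioredoxin-like Tmx1 (2.40) were the farthest. In contrast Hsp90b1, the chaperone GRP94, was at -0.51, the disulfide isomerases Pdia3 and P4hb at -0.62 and -0.88, and Txndc5 at -0.78, while the membrane chaperone Canx was at 0.52. Hsp90b1 footprints in the cytosol went from 6.86 to 49.8 and its mRNA score from 20.9 to 184.

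Chaperone genes are classic targets of the transcriptional arm of the same stress response, which acts through the ER stress response element, a pair of short boxes at a fixed spacing. The letters CCAAT and CCACG with any 9 bases between them, or CGTGG and ATTGG likewise on the other strand, were searched in RefSeq promoters (GRCm38.p6, 250 bases before to 50 after each start). They occurred in 39 of 32851 promoters (0.119%) and in 5 of the 1935 members with a promoter in the table. Of the 16 chaperone members 15 had a promoter, and 4 of those held the letters; the other gene was Hnrnpa3, a splicing protein with cytosol and ER changes of 1.18 and 0.57. The 4 chaperone genes with the element had cytosol density changes from -0.51 to 1.44. Density is relative to mRNA, and a link between the element and density was not tested. The windows are shown because they mark which members are textbook targets; the fixed letters of both boxes are in capitals, and genes on the minus strand are given in their own direction.
Hspa5, chr2:34772005-34772063, plus strand: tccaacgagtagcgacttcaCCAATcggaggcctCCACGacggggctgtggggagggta
Calr, chr8:84847055-84847113, minus strand: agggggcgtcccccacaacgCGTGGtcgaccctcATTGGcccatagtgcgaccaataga
Canx, chr11:50325780-50325838, minus strand: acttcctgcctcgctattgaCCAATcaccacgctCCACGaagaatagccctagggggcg
Hsp90b1, chr10:86705513-86705676, minus strand: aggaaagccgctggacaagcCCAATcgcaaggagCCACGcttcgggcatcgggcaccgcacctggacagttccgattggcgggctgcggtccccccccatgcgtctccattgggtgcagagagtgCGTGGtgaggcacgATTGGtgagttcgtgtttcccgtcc

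Replication-dependent histones, the genes that supply histones in S phase, made up 7 of the 8 highest ER changes among the 1032 genes above the median level. All 31 members lay above the median gene in the ER, with 27 over 2-fold higher, 0 lower and a median of 1.99; in the cytosol the median was 0.23, with 2 higher and 1 lower. Hist1h2br had ER densities of 0.343 and 3.72 and cytosol densities of 0.226 and 0.323, changes of 3.51 and 0.28. Hist1h2bh was higher in both fractions, from 1.06 to 9.17 in the ER and from 1.88 to 11.4 in the cytosol, changes of 3.19 and 2.36. Hist1h2bq (3.11), Hist1h2al (2.85), Hist2h2aa2 (2.75), Hist2h2ab (2.65) and Hist1h4k (2.64) were the others of those 7. Footprints carried the ER difference, with a median footprint change of 2.63 against 0.51 for mRNA. In the cytosol the footprint median was 1.56 and the mRNA median 1.06, so higher footprints were met by higher mRNA there. The ER median of the list at 0.5, 2 and 4 h was 1.78, 0.53 and 0.69. These genes are near-identical copies within each histone class, so the 31 values share reads to an unknown extent and are uncertain as single genes. Anp32e, a histone chaperone of its own sequence, was the remaining gene of those 8, with ER densities of 0.252 and 1.53 and cytosol densities of 0.408 and 1.22, changes of 2.68 and 1.34.

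**Figure D4:**
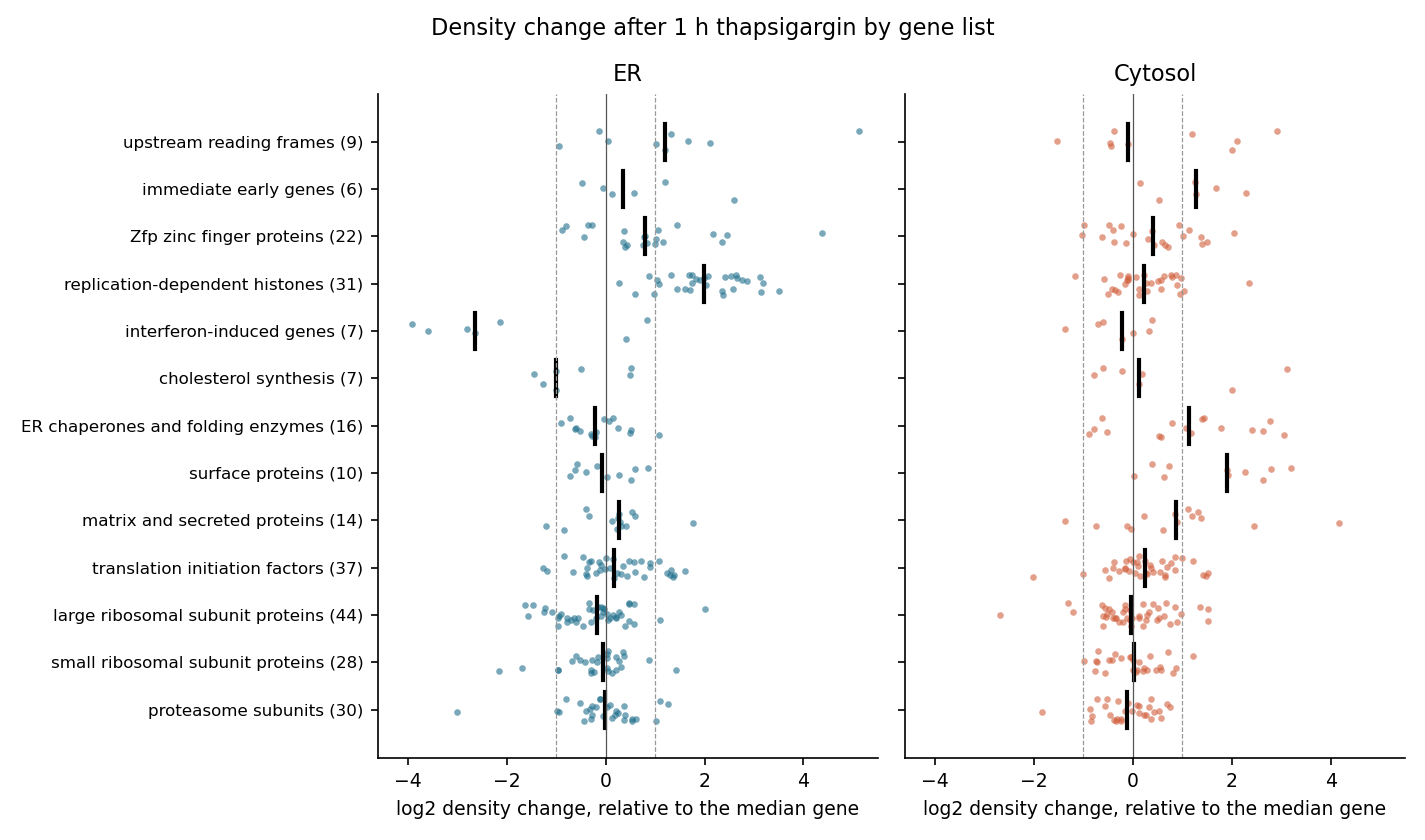
Log2 change of ribosome density at 1 h of Tg relative to the median gene, for the members of 13 gene lists in the ER (left) and the cytosol (right); each dot is a gene with 1 pooled value per condition, bars are list medians, numbers in brackets are members and dashed lines are the 2-fold limits. The histone bar lies at 1.99 in the ER and 0.23 in the cytosol, and the surface protein bar at -0.08 and 1.91.

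Interferon-induced genes, which encode antiviral proteins, had the lowest list median in the ER, but this rested on the density column. Of 7 members 5 were over 2-fold lower in the ER and 0 higher, with a median of -2.64, and 1 was lower in the cytosol around a median of -0.22. Ifitm3, a membrane protein that blocks viral entry, had ER densities of 16.6 untreated and 1.31 at 1 h and cytosol densities of 13.6 and 20.1, changes of -3.58 and 0.33. Ifit1, which binds viral RNA, went from 5.35 to 0.338 in the ER and from 8.70 to 6.28 in the cytosol. The helicase sensor Ddx58 (-2.81) and Oas1a (-2.64) were also lower, while Ifit2 stood at 0.85 and Ifitm2 at 0.41. In Ifitm3, Ifit1, Ddx58 and Oas1a the deposited ER density at 1 h was 0.226 to 0.364 times the ratio of the deposited footprint and mRNA scores. From the scores the list median was -0.63 and the changes were -1.45 for Ifitm3, -0.84 for Ifit1, -0.63 for Ddx58 and 0.14 for Oas1a. The ER density column at 1 h departed from the score ratio by over 1.5 times in 84 of the 2650 members (3.17%), with ratios from 0.0851 to 4.46 over all genes, against 1.21% of members in the untreated ER column. At 2 and 4 h the ER list median was 0.43 and 0.24.

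**Figure D5:**
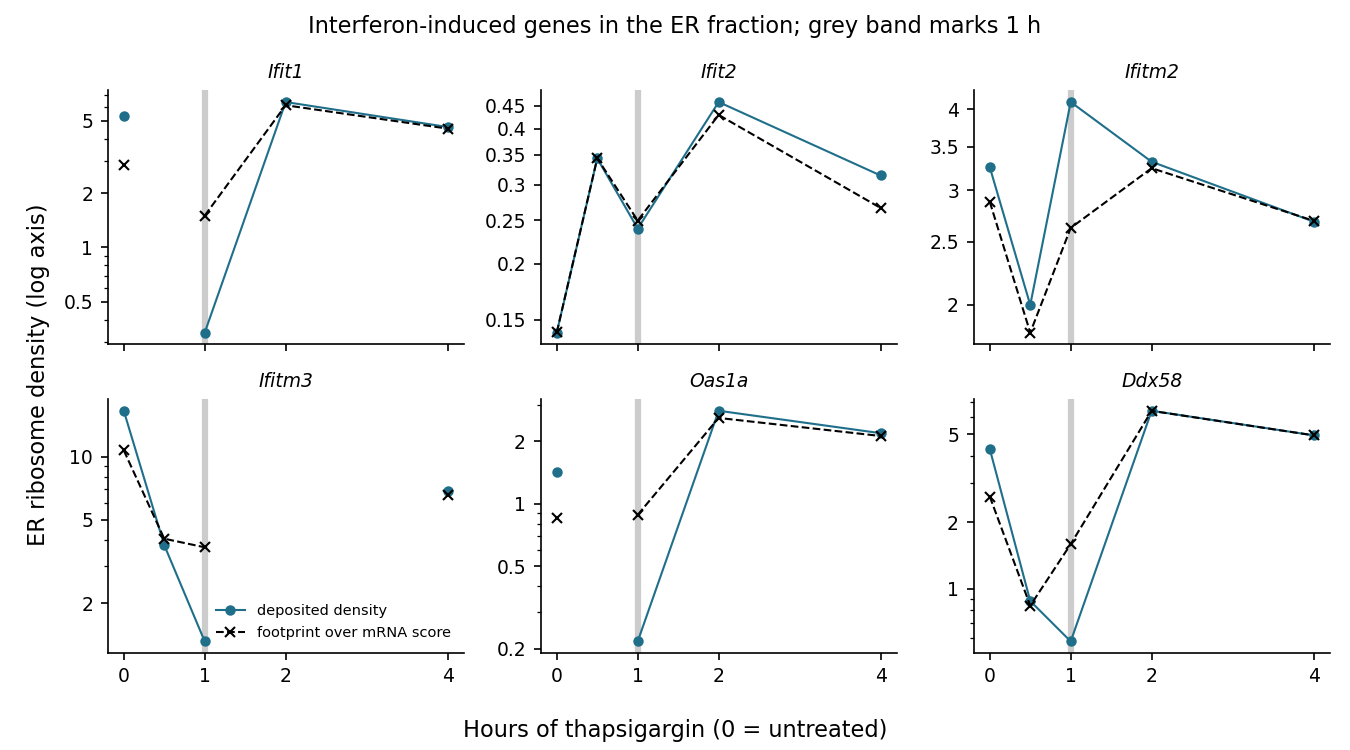
ER ribosome density (log axis) of 6 interferon-induced members in untreated cells (0 h) and at 0.5, 1, 2 and 4 h of Tg, as deposited (circles) and as the ratio of the deposited footprint and mRNA scores (crosses), 1 pooled value per point and blanks left out. Circles and crosses part at 1 h in 5 of the 6 genes and at 0 h in Ifit1, Ifitm3, Oas1a and Ddx58, and nearly coincide at 2 and 4 h except for Ifit2.

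Promoters of such genes are known for the interferon-stimulated response element. The core letters GAAA, any 2 bases and GAAA, or TTTC, any 2 bases and TTTC on the other strand, were found in 5 of the 6 interferon-induced members with a promoter in the table and in 3.44% of all 32851 promoters, 3.88% of the 1935 members; no match overlapped an ER stress response element. Both Ifit1, lower in the ER, and Ifitm2, not lower, held it, and the windows of 3 genes are shown with the matched letters in capitals, Oas1a holding a pair of matches that overlap.
Ifit1, chr19:34640765-34640833, plus strand: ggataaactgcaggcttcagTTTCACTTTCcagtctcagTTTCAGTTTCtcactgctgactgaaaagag
Oas1a, chr5:120907526-120907565, minus strand: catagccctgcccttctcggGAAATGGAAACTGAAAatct
Ifitm2, chr7:140955978-140956027, minus strand: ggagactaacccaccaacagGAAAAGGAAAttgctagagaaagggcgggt

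Cholesterol and fatty acid synthesis had 3 of 7 members over 2-fold lower in the ER and 0 higher, with a median of -1.0; 2 lay above 0, and from the scores Fasn alone of the 3 passed 2-fold (-1.48). Hmgcs1, which makes the precursor of mevalonate, had ER densities of 5.18 and 2.45 and cytosol densities of 2.87 and 13.7, changes of -1.005 (-0.84 from the scores) and 2.01. Its cytosol mRNA score was 31.1 untreated and 7.96 at 1 h, while footprints were 90.1 and 101. Fasn, the fatty acid synthase, was at -1.26 in the ER and 0.13 in the cytosol, and Idi1 at -1.45 and 0.19, with -0.38 in the ER from the scores. Sqle, the squalene epoxidase, had a cytosol change of 3.13 that starts from a density of 0.0235 and was 1.26 with 0.1 added.

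Immediate early genes, which respond to signals without new protein synthesis, had a cytosol median of 1.27 with 4 of 6 higher and 0 lower, and an ER median of 0.35 with 2 higher. Ptgs2, the inducible cyclooxygenase, went from 0.403 to 2.31 in the cytosol (2.28), and Tnfaip3, a brake on NF-kappa B, from 1.47 to 5.56 (1.68). Plk2 was at 1.28 in the cytosol and 0.12 in the ER, whereas Fosl1, a partner of Jun, was higher in the ER at 2.59 and at 0.54 in the cytosol. Of 22 zinc finger proteins of the Zfp series, 9 were higher and 0 lower in the ER (median 0.79), and 6 were higher and 1 lower in the cytosol (median 0.41). The farthest were lowly read: Zfp689 had ER densities of 0.0204 and 0.404, and its change of 4.38 was 2.13 with 0.1 added.

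Ribosomal proteins had list medians near that of the median gene, though 28 of the 44 large subunit members lay below 0 in the ER. Large ribosomal subunit proteins had medians of -0.18 in the ER and -0.04 in the cytosol over 44 members, with 2 higher and 6 lower in the ER and 3 and 3 in the cytosol. Small subunit proteins had medians of -0.06 and 0.03 over 28 members, with 1 higher and 2 lower in the ER and 1 higher in the cytosol. These genes have many processed copies, so single values such as Rpl41 (2.02 and 1.53) or Rps15a (-1.69 and 0.87) are uncertain. Elongation and release factors and poly(A)-binding proteins had medians of -0.27 in the ER and 0.13 in the cytosol over 15 members. In the ER 0 were higher and 2 lower, with 11 below 0, and in the cytosol 0 were higher and 1 lower. The elongation factor Eef1a1 was at -0.39 in the ER and 0.75 in the cytosol, and Eef2 at -0.64 and 0.23.

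Initiation factors had medians of 0.17 and 0.24 over 37 members, with 7 higher and 2 lower in the ER and 5 and 2 in the cytosol. Among them were 2 kinases that phosphorylate eIF2 alpha: Eif2ak1, the haem-regulated kinase, was higher in the ER (1.60) and at -0.28 in the cytosol, and Eif2ak2, the kinase PKR, was lower in the cytosol (-2.01, and -1.05 from the scores) and at 0.78 in the ER. The helicase Eif4a2 was higher in both (1.23 and 1.51), and the cap-binding protein Eif4e was higher in the cytosol (1.48). Aminoacyl-tRNA synthetases (20 members) lay at medians of -0.01 and -0.06, with Rars higher in the cytosol (1.45) and Vars and Iars lower in the ER (-1.45 and -1.29). ATF4 and CHOP targets had medians of -0.18 and 0.02 over 6 members, with Psat1 of serine synthesis higher in the cytosol (1.17) and the mitochondrial folate enzyme Mthfd2 lower there (-1.11).

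Of 52 splicing factors, 10 were higher and 1 lower in the ER (median 0.22), where 12.6% and 10.3% of all members were, and 19 lay below 0. Hnrnph3 (1.81), Srsf3 (1.64) and Snrpd2 (1.61) were the highest. The actin cytoskeleton had 9 of 37 higher and 1 lower in the ER around 0.10, with Tpm2 (1.67), Myl6 (1.45), Pfn1 (1.36) and Myl12b (1.31) higher and Actb at 0.37. Microtubule genes had 2 of 34 higher and 4 lower, with the kinesins Kif2a (-1.98), Kif5b (-1.71) and Kif11 (-1.44) lower in the ER. Proteasome subunits (30 members, medians -0.01 and -0.12) and glycolytic enzymes (13 members, 0.27 and 0.07, with Gapdh at 0.50 and 0.29) stayed near the median gene. So did complexes II to V (21 members, -0.06 and 0.01), chaperones of the cytosol and mitochondria (25 members, 0.04 and 0.05) and cell cycle genes (28 members, -0.27 and 0.07). The remaining lists of 5 or more members had medians between -0.39 and 0.29 in the ER and between -0.29 and 0.26 in the cytosol.

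The difference between the ER change and the cytosol change exceeded 2-fold in 415 genes toward the ER (15.7%) and in 394 toward the cytosol (14.9%). Marked genes had a median of -0.79, with 82 of 193 beyond 2-fold toward the cytosol, and histones one of 1.90, with 27 of 31 toward the ER. Of the 1032 genes above the median level, those farthest toward the cytosol were Ifitm3 (-3.91), Gm7429 (-2.84), Rps15a-ps5 (-2.77), Sdf2 (-2.72), the membrane protein Tmem45a (-2.70) and LOC100862012 (-2.66); Gm7429, Rps15a-ps5 and LOC100862012 are names of likely copies and are uncertain. From the scores Ifitm3 changed by -1.45 in the ER and -0.18 in the cytosol, so much of its difference rested on the density columns. Farthest toward the ER in the same 1032 were D8Ertd738e (3.25), Hist1h2br (3.23), Rpl27 (3.01), Hist2h2aa2 (2.85), the RNA polymerase subunit Polr2f (2.67) and Cd99 (2.57). Polr2f had ER densities of 1.48 and 8.67 and cytosol densities of 3.29 and 3.78.

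Density is footprints over mRNA, so genes chosen by their density change tend to have parts that moved in the matching direction. The counts that follow are therefore descriptive. Of all 2650 members, 185 had ER footprints over 2-fold higher and 113 lower, and 92 had ER mRNA over 2-fold higher and 80 lower. In the cytosol the same counts over all members were 280 and 125 for footprints and 184 and 61 for mRNA. Of the 333 genes higher in the ER, 133 had footprints over 2-fold higher and 50 had mRNA over 2-fold lower. Of the 274 lower in the ER, 74 had footprints over 2-fold lower and 53 had mRNA over 2-fold higher. In the cytosol, 144 of the 262 higher genes had footprints over 2-fold higher and 26 had mRNA over 2-fold lower, and of the 253 lower genes 75 had lower footprints and 50 higher mRNA. The ER change also ordered by the untreated cytosol density, a value the ER change does not use. Among the 530 genes with the lowest untreated cytosol density the median ER change was 0.31, with 114 higher and 32 lower, and among the 530 with the highest it was -0.15, with 40 higher and 83 lower. The reverse ordering was not seen, with median cytosol changes from -0.02 to 0.02 over 5 equal bins of untreated ER density.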

How the data were processed

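Ribosome footprints and mRNA were sequenced from ER and cytosol fractions; per the labels' protocols, footprints were gel-purified after nuclease digestion and mRNA libraries were made after depletion of ribosomal RNA. The aligner was Bowtie, per the submitters' processing notes; its version, genome build and annotation are not given in the sources used here. For thapsigargin (Tg) the authors deposited a gene table with 3 header lines whose translation and mRNA columns hold a score of unstated scaling, pooled over 2 samples. Its ribosome density columns hold a ratio, close to the footprint score over the mRNA score, per the file headers and values. An unlabelled TRUE or FALSE column was taken as deposited. Blanks were left out and no pseudocount or filter was used.

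Changes were log2 ratios of density at 1 h of Tg over untreated, minus the median of the 2650 genes, computed with Python 3.11.15, pandas 2.3.3, numpy 2.4.6 and matplotlib 3.10.9, with the calculation tested on simulated data. Tests planned for replicated values could not be run; depth and counting precision are unknown. Named genes were the 8 highest and 8 lowest per fraction and the 6 highest and 6 lowest by ER minus cytosol change, among genes over 2-fold with scores above the median gene. To these came 21 always-named genes, of which 5 lacked values, and up to 4 members over 2-fold (or the 2 most read) for each of the 33 lists, of 39, with at least 5 members. Some genes that this rule names are not reported here. Other named genes were chosen after their values were seen. The members and lists were chosen with earlier results of these data known. Names of likely copies (Gm, LOC, Rik, pseudogenes, ribosomal proteins, histones) are called uncertain. Promoters came from RefSeq, matched by symbol for 1935 members. DTT samples were not used here. The alternatives were 9 other settings of values, centring, filter, pseudocount and genes.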

Additional observations from a re-analysis of the deposited data

How the results depend on the processing

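Each count, list median and named gene was recomputed under up to 9 other settings. Of 1176 values of named genes, 1087 kept their direction and their side of 2-fold or, if not called, stayed close. Reversals occurred only with the ratio of the deposited scores, for Mmp3 (-0.12) and Oas1a (0.14) in the ER. With that ratio the interferon-induced ER median was -0.63; it was -0.86 over genes with all 10 densities and -1.01 over all 14 with both ER densities, and it could not be given without the departing genes or above the median level. Not centred, 413 genes were higher and 144 lower in the cytosol, 259 and 619 by ER minus cytosol change, and the cholesterol median in the ER was -1.08; centred on unmarked genes it was -1.002. Above the median level 1032 genes remained, of which 140 were higher and 111 lower in the ER, 84 and 74 in the cytosol, and 142 and 121 by the difference, and the chaperone cytosol median was 0.62. With 0.1 added it was 0.86. Over all genes with both ER densities, 433 of 3831 were lower (11.3% against 10.3%), and the upstream reading frame median was 0.79. The histone, surface protein and immediate early medians stayed beyond 1 wherever they could be computed. No paired analysis was possible because the table holds pooled values and no column per replicate, and leaving out a replicate could not be run for the same reason. Low untreated cytosol values of marked genes limit how exactly their changes are known.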

Other observations

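Genes of polyamine metabolism, picked out after their values were seen, went opposite ways. Odc1, the ornithine decarboxylase that opens the pathway, was over 2-fold lower in both fractions, with densities of 0.652 and 0.298 in the ER and 1.20 and 0.437 in the cytosol, changes of -1.05 and -1.69. Azin1, which shields that enzyme from antizyme, was over 2-fold higher in both (1.32 and 1.20). Srm, the spermidine synthase, was at -1.16 in the ER and 0.05 in the cytosol. The ER footprint score of Odc1 was 57.4 untreated and 17.7 at 1 h.

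Among the other genes that moved alike in both fractions, also named after their values were seen, were some with roles in mRNA turnover and signalling. Cnot2 of the CCR4-NOT deadenylase (1.41 in the ER, 1.68 in the cytosol) and Gigyf2, which represses cap-dependent initiation (1.24 and 1.94), were over 2-fold higher in both, as was the growth factor Fgf7 (1.38 and 1.92). Khsrp, which promotes decay of AU-rich mRNAs, was lower in both (-1.75 and -1.87), and so were the stress kinase Mapkapk2 (-1.51 and -1.25) and the ubiquitin ligase Itch (-1.65 and -1.13). The cytosol density of Gigyf2 at 1 h was 1.70 times the ratio of its scores. None of these differences was tested.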
